A study of Mus musculus with 16 samples.

Results

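The neutrophil and eosinophil granule genes examined here are Elane, Prtn3, Mpo, Ctsg, Lyz1, Lyz2, S100a8, S100a9, Ear1 and Ear2. They were chosen by name, and every probe on the array whose RefSeq accession belongs to one of them was used, which gave 1 probe for each gene and 10 of the 20663 genes with a probe. Gene expression was measured in splenic CD4+ T cells of male mice aged 8 to 10 weeks, on 16 one-colour arrays. NEMO and IKK2 are subunits of the IkB kinase complex, which activates the transcription factor NF-kB, and nephrotoxic serum nephritis is a glomerulonephritis induced by injecting antiserum raised in sheep.

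The arrays fall into 6 groups. There were 2 arrays of CD4-Cre NEMO fl/fl mice with nephritis and 2 of CD4-Cre NEMO fl/fl mice without it, called NEMO knockout below. There were 3 arrays of CD4-Cre IKK2 fl/fl mice with nephritis and 3 without it, called IKK2 knockout. There were 3 arrays of CD4-Cre mice with nephritis and 3 of CD4-Cre mice without it, called Cre controls. Nephritis was induced with 2.5 mg of serum per g of body weight and organs were taken on day 10. All 6 groups carry Cre recombinase under the CD4 promoter, which deletes a floxed gene in the T cell lineage. Whether the arrays within a group stem from separate mice is not in the labels. The p-values therefore reflect spread between these arrays alone, and that spread may be technical.

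Elastase (Elane), proteinase 3 (Prtn3), cathepsin G (Ctsg) and myeloperoxidase (Mpo) are stored in the azurophil granules of neutrophils, and their mRNA is made in early neutrophil precursors of the bone marrow and largely lost as the cells mature. Lysozyme (Lyz2 in most myeloid cells, Lyz1 best known from Paneth cells of the gut) cleaves bacterial cell walls. S100a8 and S100a9 form calprotectin, the abundant cytosolic protein of mature neutrophils and of monocytes. Ear1 and Ear2 belong to the eosinophil-associated ribonucleases of rodents. All 10 are best known from myeloid cells or, for Lyz1, from the gut, not from CD4+ T cells.

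All 10 genes gave a signal well above background on some arrays of the sorted cells. Elane, Mpo and Lyz1 were above background on all 16 arrays, Lyz2, S100a9 and Ear2 on 15, S100a8 on 14, Ear1 on 13, Ctsg on 9 and Prtn3 on 5. The Cre controls without nephritis held the lowest mean of 7 of the 10 genes, namely Ctsg, Lyz1, Lyz2, S100a8, S100a9, Ear1 and Ear2, and the highest mean of Elane. How many of all genes had their lowest or highest mean in this group was not counted, so the order is not set apart from that of other genes. In bulk RNA, a different number of cells of another type and a different amount of RNA per cell cannot be told apart.

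Levels are log2 processed intensities relative to the 75th percentile of the same array, so 0 is the 75th percentile and each step of 1 is a doubling. Differences and their standard errors (SE) come from limma, fitted to all 6 groups, and a gene was called when its Benjamini-Hochberg adjusted p over the 14674 genes tested was under 0.05. Without nephritis, 6 of the 10 genes were called higher in IKK2 knockout than in Cre control cells and 1 was called lower, where 10.0% of all genes tested were called higher and 4.53% lower. Of these 7, Ear1, Ear2, Lyz1 and Lyz2 were called in 16 of 17 alternative fits. The exception was slide 2 alone, where a single IKK2 knockout array remains. With slide as a block the difference rests on that same array and has the same size, so this fit is not a separate check on the slide. In NEMO knockout cells without nephritis 4 were higher and 1 was lower than in Cre control cells, where 21.0% of all genes were higher and 22.0% lower. With nephritis, 0 of 10 were called between IKK2 knockout and Cre control (2.58% of all genes), and 1 had an unadjusted p under 0.05. NEMO knockout cells with nephritis had 2 genes higher than Cre controls with nephritis (18.8% of all genes) and 0 lower (29.6%), with 3 at an unadjusted p under 0.05.

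Nephritis against none gave 5 genes higher and 1 lower in Cre controls, where 2.57% of all genes were called higher and 1.47% lower. With slide as a block, or in a fit of only the 6 arrays compared, 0 of these 6 calls held, and without array 1 of the Cre controls without nephritis and array 2 of those with nephritis, which stood apart in earlier work on these data, 1 held. Few genes of any kind were called in these fits (2, 0 and 63 of 14674). With slide as a block each of the 6 differences was smaller in size than in the fit of all arrays. Ctsg went from 4.02 to 2.59, Ear1 from 3.49 to 3.14 and Lyz1 from 2.21 to 1.95. Ear2 went from 3.38 to 3.33, Lyz2 from 2.29 to 2.25 and Elane from -0.81 to -0.79. Those of Ctsg and Ear1 are fitted values, since no Cre control array without nephritis showed them well above background. The fit of 6 arrays compares the same group means, so its differences do not change. Nephritis against none gave 0 of 10 in IKK2 knockout cells (0.443% of all genes, either direction) and 0 of 10 in NEMO knockout cells (0.416%), although 2 and 5 of the genes had an unadjusted p under 0.05. Between the knockouts, 1 of 10 was lower in NEMO than in IKK2 knockout cells without nephritis (19.9% of all genes) and 0 of 10 differed with nephritis (46.1%, either direction). In the last comparison 0 of 10 also had an unadjusted p under 0.05. The comparisons of both knockouts with Cre controls without nephritis, and that of nephritis in Cre controls, share the same 3 arrays of Cre controls without nephritis, so these 3 counts are not independent of each other. The nephritis response of IKK2 knockouts minus that of Cre controls was called for 3 of 10, all lower (0.838% of all genes), and for 0 of 10 with slide as a block, where 38 of all genes were called. That of NEMO knockouts minus that of Cre controls was called for 0 of 10 (0.266% of all genes, either direction), with 3 at an unadjusted p under 0.05.

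The slides limit these comparisons. Slide 1 held all arrays of Cre controls and IKK2 knockouts with nephritis and arrays 1 and 2 of IKK2 knockouts without nephritis. Slide 2 held the 3 Cre controls without nephritis and array 3 of the IKK2 knockouts without nephritis, and slide 3 held all 4 NEMO knockout arrays. Each slide was scanned in a session of its own. Slide and genotype cannot be told apart for any difference between NEMO knockouts and another genotype, whereas nephritis against none in NEMO knockouts lies within slide 3 and IKK2 knockout against Cre control with nephritis lies within slide 1. Nephritis against none in Cre controls crosses slides and is linked only through the IKK2 knockout arrays.

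Between 48.9% and 59.8% of the spots of an array were well above background, no spot was saturated, and arrays of a group correlated at 0.971 to 0.993 over probes. The single Ikbkb probe, for the gene of IKK2, differed by -0.24 ± 0.11 without nephritis and by -0.34 ± 0.11 with nephritis in IKK2 knockout against Cre control cells (SE; adjusted p from limma 0.162 and 0.133). The brighter of 2 Ikbkg probes, for NEMO, differed by -0.13 ± 0.11 without and by -0.34 ± 0.11 with nephritis in NEMO knockout against Cre control cells (adjusted p from limma 0.337 and 0.0195). In NEMO knockouts the Ikbkb probe also differed from Cre controls, by -0.35 ± 0.12 without and -0.48 ± 0.12 with nephritis (limma adjusted p = 0.0371 and 0.00653). In IKK2 knockouts the Ikbkg probe differed by 0.68 ± 0.10 without and by -0.10 ± 0.10 with nephritis (limma adjusted p = 0.00153 and 0.598). Where these probes lie relative to the floxed exons is not known here, so they do not check the deletion. T cell markers were bright on every array: the summed linear level of 10 of them (Cd3e, Cd3d, Cd3g, Cd4 and others) lay between 1255 and 1556 times the 75th percentile. This sum cannot show small amounts of other cell types, whose markers are given below.

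**Figure D1:**
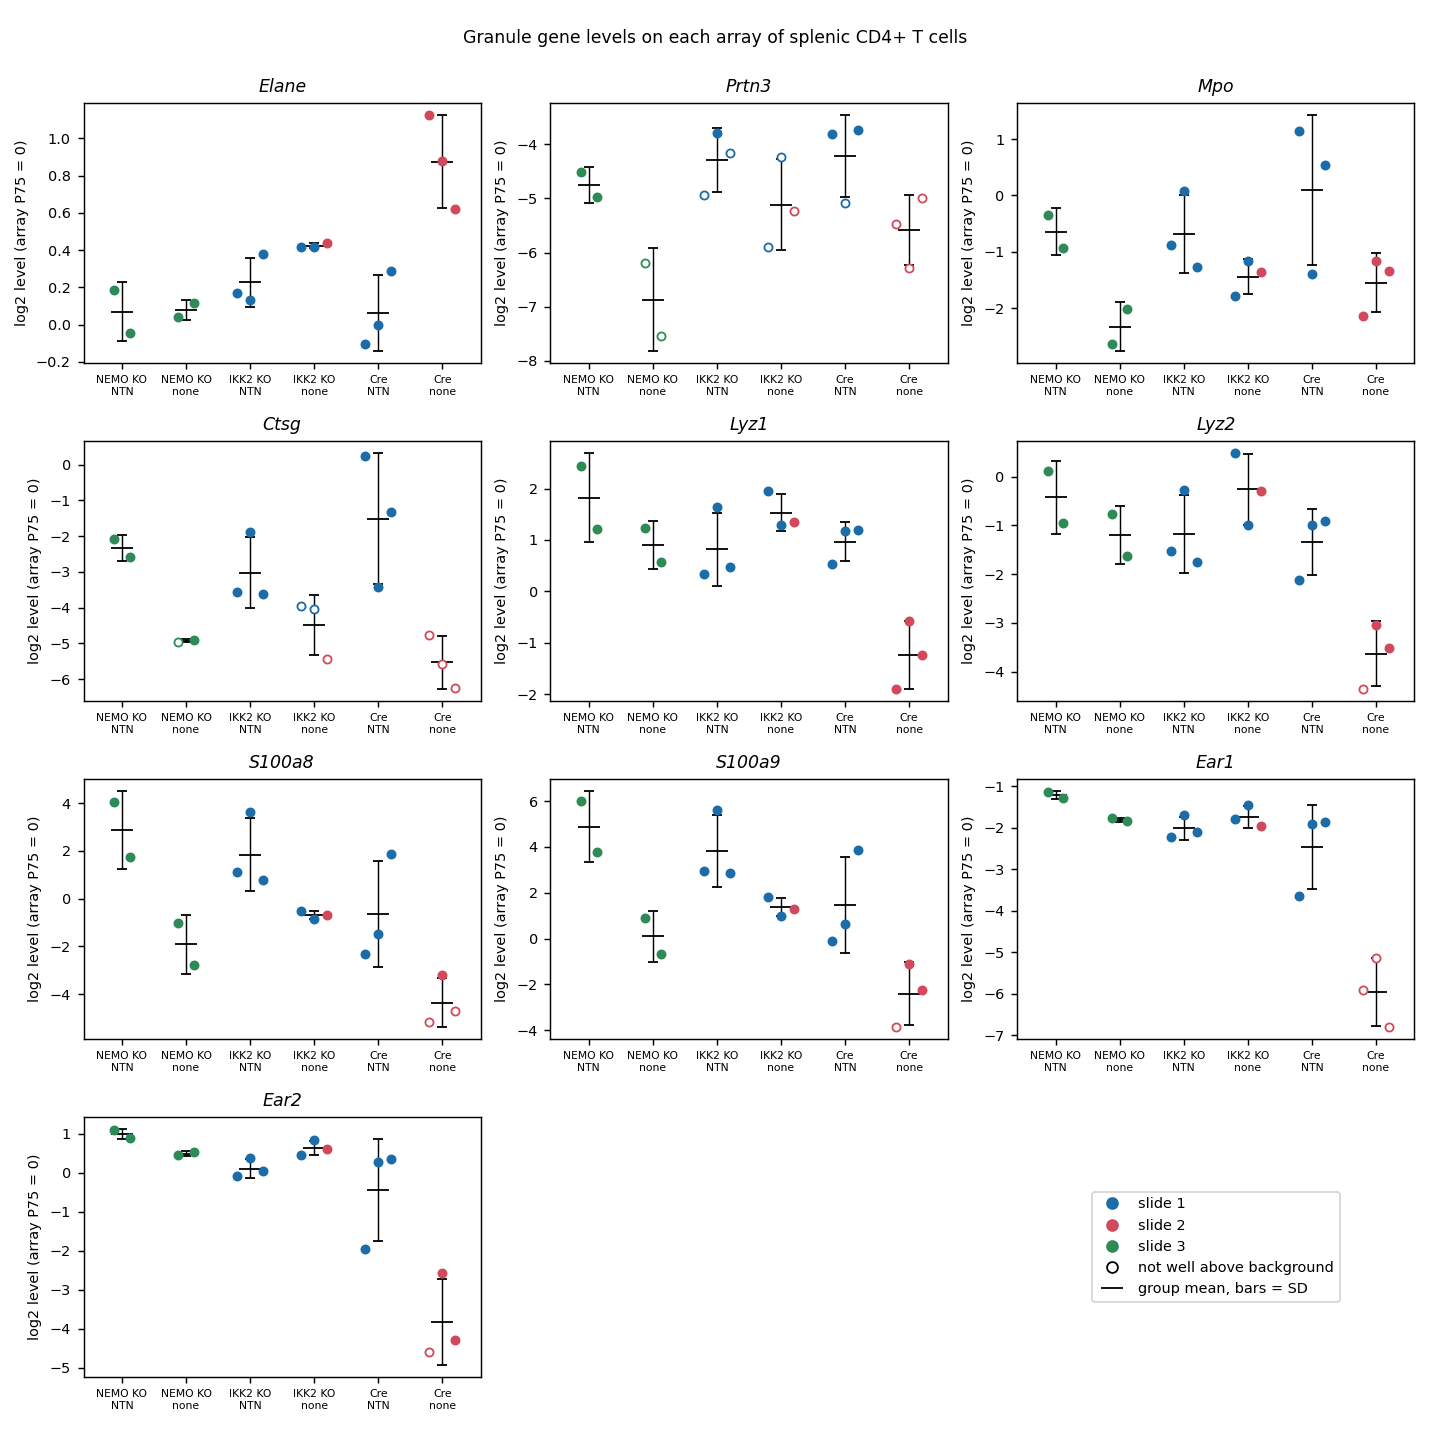
Levels of the 10 granule genes on each of 16 arrays, in log2 units with the 75th percentile of the array at 0; columns are the 6 groups (KO, knockout; NTN, nephrotoxic serum nephritis), filled points are well above background, colours are slides, and dashes with bars are group means and SD. For Ear1, Ear2, Lyz1, Lyz2, S100a8 and S100a9 the 3 Cre controls without nephritis lie below all 13 other arrays, while for Elane they lie above all of them. The share of all genes with either order was not counted.

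For the ribonuclease genes Ear1 and Ear2 the Cre controls without nephritis lay below all other arrays. Their promoters in RefSeq (assembly GRCm38.p6, 250 bases before to 50 after the start site) are shown because the genes changed together and are near copies: 294 of 297 aligned promoter bases, or 99.0%, were identical. Ear1 lies at chr14:43819590-43819889 on the minus strand and Ear2 at chr14:44102404-44102703 on the plus strand. Capitals mark a match to the C/EBP motif TTGCNNAA, searched on both strands, which 10.8% of 32851 RefSeq promoters hold.
Ear1: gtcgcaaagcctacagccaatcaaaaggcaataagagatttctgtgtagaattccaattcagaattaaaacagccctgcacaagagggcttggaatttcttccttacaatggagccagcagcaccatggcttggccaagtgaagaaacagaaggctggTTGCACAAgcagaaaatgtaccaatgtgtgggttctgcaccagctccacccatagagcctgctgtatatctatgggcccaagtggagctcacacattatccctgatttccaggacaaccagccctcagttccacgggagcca
Ear2: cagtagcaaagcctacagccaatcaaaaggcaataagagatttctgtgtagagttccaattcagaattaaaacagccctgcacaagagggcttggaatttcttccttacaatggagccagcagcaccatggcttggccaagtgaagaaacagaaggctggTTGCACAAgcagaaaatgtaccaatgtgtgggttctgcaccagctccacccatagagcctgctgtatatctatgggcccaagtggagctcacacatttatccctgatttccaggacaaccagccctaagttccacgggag
The motif stands 92 bases before the Ear1 start site and 90 bases before that of Ear2. C/EBP factors act in granulocyte and macrophage development. Since the probe sequences are not used here, signal of one paralog at the other's probe could not be examined, and the values of Ear1 and Ear2 are uncertain as to which gene they come from.

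Ear2 read 1.08 and 0.89 in NEMO knockouts with nephritis and 0.45 and 0.53 in those without it. In IKK2 knockouts it read -0.10, 0.38 and 0.03 with nephritis, against 0.46, 0.84 and 0.60 without. Cre controls with nephritis read -1.96, 0.28 and 0.35, and Cre controls without nephritis read -4.61, -2.57 and -4.30, the first of these not well above background. Array 1 of the Cre controls with nephritis lay between the Cre controls without nephritis and all other arrays. Apart from that array, the 12 arrays that were not Cre controls without nephritis spanned only -0.10 to 1.08.

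Ear1 followed the same order of arrays closely (Pearson r = 0.986 over 16 arrays, Spearman rho = 0.906). Its level was -1.14 and -1.28 in NEMO knockouts with nephritis and -1.77 and -1.83 in those without it. IKK2 knockouts had -2.22, -1.69 and -2.10 with nephritis and -1.80, -1.44 and -1.96 without it. Cre controls with nephritis had -3.64, -1.91 and -1.85, whereas the Cre controls without nephritis had -5.91, -5.15 and -6.79, none of them well above background.

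Without nephritis, Ear2 was higher in IKK2 knockout than in Cre control cells by 4.46 ± 0.59 (SE, n = 3 each; limma adjusted p = 0.00109), and Ear1 was at least 8.20-fold higher (adjusted p = 0.000399). In NEMO knockout cells (n = 2, against 3 Cre controls) Ear2 was higher by 4.31 ± 0.66 (limma adjusted p = 0.000283) and Ear1 was at least 7.84-fold higher (adjusted p = 6.17e-05). The bounds set the mean of the bright group against the dimmest level counted as above background on the dim arrays. Where the gene itself read higher than that level on such an array, its own reading was used. With slide as a block both were still called in IKK2 knockouts (adjusted p = 0.0108 for Ear1), with Ear2 higher by 4.43 ± 0.87 (SE). The blocked difference rests on array 3 of these IKK2 knockouts, the only one that shares a slide with the Cre controls. That array read -1.96 for Ear1 and 0.60 for Ear2. With slide 2 alone both adjusted p-values passed 0.05 (0.0954 for Ear1 and 0.129 for Ear2). With normexp background correction, a method that lifts dim values, the fitted Ear1 difference was 1.17 for IKK2 and 1.02 for NEMO knockouts, and with the deposited log2 matrix it was 1.87 and 1.81, all called. These are below the bounds just given, and their Cre control arm is not well above background, so the size of the Ear1 difference depends on the background correction. Normexp gave Ear2 differences of 2.72 for IKK2 and 2.60 for NEMO knockouts.

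Nephritis in Cre controls went with higher Ear1 (at least 4.93-fold, limma adjusted p = 0.00699) and higher Ear2 (by 3.38 ± 0.59, SE, n = 3 each, adjusted p = 0.0157), and 3 of 3 arrays lay above all arrays without nephritis for each gene, a separation that 20.8% of all genes showed in this direction. Without array 1 or without array 3 of the Cre controls without nephritis Ear2 was no longer called, and with slide as a block neither was (adjusted p = 0.214 for Ear1 and 0.287 for Ear2). With normexp the fitted Ear1 difference was 0.87, below its bound, and that of Ear2 was 1.87. In IKK2 knockouts nephritis made a difference of -0.27 ± 0.46 for Ear1 and -0.53 ± 0.59 for Ear2 (SE; adjusted p = 0.855 and 0.754), and in NEMO knockouts of 0.59 ± 0.57 and 0.50 ± 0.72 (adjusted p = 0.9998 for both). The response of IKK2 knockouts minus that of Cre controls was -3.76 ± 0.65 for Ear1 (limma adjusted p = 0.037) and -3.91 ± 0.83 for Ear2 (adjusted p = 0.0492), and with slide as a block the adjusted p-values were 0.103 and 0.144. The Ear1 value is a fitted one and not a measured size, since none of the Cre controls without nephritis was well above background. With nephritis, NEMO knockouts stood above Cre controls by 1.26 ± 0.52 for Ear1 and 1.43 ± 0.66 for Ear2 with no overlap of the arrays (no overlap in this direction in 26.7% of all genes; adjusted p = 0.0627 and 0.0925).

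The lysozyme genes Lyz1 and Lyz2 showed the same contrast between the Cre controls without nephritis and all other arrays. Their RefSeq promoters are given for the same reason: 249 of 298 aligned bases, or 83.6%, were identical, at chr10:117292819-117293118 for Lyz1 and chr10:117282223-117282522 for Lyz2, both on the minus strand (GRCm38.p6). Capitals mark the C/EBP motif TTGCNNAA on either strand, present in Lyz1 only within this window.
Lyz1: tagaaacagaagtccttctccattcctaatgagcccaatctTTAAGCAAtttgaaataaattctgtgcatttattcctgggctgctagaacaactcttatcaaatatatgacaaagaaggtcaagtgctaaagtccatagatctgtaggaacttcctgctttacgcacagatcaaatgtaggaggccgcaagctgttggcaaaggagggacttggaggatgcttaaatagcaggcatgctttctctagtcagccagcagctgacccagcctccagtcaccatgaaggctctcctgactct
Lyz2: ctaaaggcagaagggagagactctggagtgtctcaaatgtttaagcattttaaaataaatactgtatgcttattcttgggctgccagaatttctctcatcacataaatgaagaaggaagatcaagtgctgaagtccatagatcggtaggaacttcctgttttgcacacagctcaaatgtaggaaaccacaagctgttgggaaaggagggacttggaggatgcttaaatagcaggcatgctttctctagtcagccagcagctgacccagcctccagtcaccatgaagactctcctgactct
The Lyz1 match stands 209 bases before the start site. As for the ribonucleases, cross-hybridisation between the 2 paralogs could not be examined.

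Lyz2 read 0.11 and -0.95 in NEMO knockouts with nephritis and -0.77 and -1.62 in those without. It read -1.52, -0.27 and -1.75 in IKK2 knockouts with nephritis and 0.49, -0.99 and -0.29 in those without. Cre controls with nephritis read -2.12, -0.99 and -0.91, and Cre controls without nephritis read -4.35 (not well above background), -3.04 and -3.50. The 3 last values lay below all other 13 arrays, which overlapped broadly between their groups.

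Lyz1 had levels of 2.44 and 1.21 in NEMO knockouts with nephritis and 1.23 and 0.57 in those without. IKK2 knockouts had 0.34, 1.63 and 0.47 with nephritis and 1.94, 1.29 and 1.35 without. Cre controls had 0.54, 1.17 and 1.19 with nephritis and -1.90, -0.58 and -1.24 without. As for Lyz2, all 13 arrays outside the Cre controls without nephritis lay above the 3 in it, and both genes ran together over the arrays (Pearson r = 0.979).

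In IKK2 knockouts without nephritis, Lyz1 was higher than in Cre controls by 2.77 ± 0.44 and Lyz2 by 3.37 ± 0.54 (SE, n = 3 each; limma adjusted p = 0.00273 and 0.00275), and both stayed called in each of 6 fits that left out 1 array and with slide as a block (2.59 and 3.34). The difference with slide as a block rests on array 3 of these IKK2 knockouts, as does that on slide 2 alone, where neither was called. NEMO knockouts without nephritis stood higher by 2.14 ± 0.49 for Lyz1 and 2.43 ± 0.60 for Lyz2 (adjusted p = 0.00429 and 0.00664), and without array 1 of these NEMO knockouts neither was called (highest adjusted p = 0.0509 and 0.0722). Nephritis in Cre controls gave 2.21 ± 0.44 for Lyz1 and 2.29 ± 0.54 for Lyz2 (adjusted p = 0.0246 and 0.0383), lost with slide as a block (0.410 and 0.458). Lyz1 stayed called in 2 and Lyz2 in 1 of the 6 fits that left out 1 array. With normexp, the Lyz2 differences were 1.91 in IKK2 knockouts, 1.15 in NEMO knockouts and 1.12 for nephritis in Cre controls.

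In the knockouts, nephritis moved neither lysozyme past the threshold. In IKK2 knockouts Lyz1 differed by -0.71 (95% interval -1.67 to 0.25) and Lyz2 by -0.92 (-2.09 to 0.26), and in NEMO knockouts by 0.92 (-0.25 to 2.10) and 0.78 (-0.66 to 2.22). The response of IKK2 knockouts minus that of Cre controls was -2.92 ± 0.62 for Lyz1 (SE, limma adjusted p = 0.0492) and -3.21 ± 0.76 for Lyz2 (adjusted p = 0.0658). With slide as a block the adjusted p-values were 0.154 and 0.172. With nephritis, Lyz2 differed by 0.16 (95% interval -1.01 to 1.34) between IKK2 knockouts and Cre controls, within slide 1.

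S100a8 and S100a9 spanned 7.24 and 8.23 log2 units between the lowest and the highest of the arrays on which they were well above background, more than any other of the 10 genes over such arrays. The genes lie near each other on chromosome 3 and their proteins form a heterodimer, so their promoters are shown side by side: S100a8 at chr3:90668821-90669120 on the plus strand and S100a9 at chr3:90695672-90695971 on the minus strand (RefSeq, GRCm38.p6). Capitals mark GAGGAA on either strand, a core letter run bound by PU.1 and other ETS factors and held by 28.3% of 32851 promoters, and in S100a9 the C/EBP motif TTGCNNAA.
S100a8: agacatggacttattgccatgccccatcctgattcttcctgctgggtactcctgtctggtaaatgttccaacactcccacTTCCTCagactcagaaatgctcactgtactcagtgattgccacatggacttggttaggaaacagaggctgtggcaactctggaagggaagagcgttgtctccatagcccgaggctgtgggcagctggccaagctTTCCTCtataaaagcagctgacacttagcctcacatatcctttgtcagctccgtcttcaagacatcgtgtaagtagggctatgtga
S100a9: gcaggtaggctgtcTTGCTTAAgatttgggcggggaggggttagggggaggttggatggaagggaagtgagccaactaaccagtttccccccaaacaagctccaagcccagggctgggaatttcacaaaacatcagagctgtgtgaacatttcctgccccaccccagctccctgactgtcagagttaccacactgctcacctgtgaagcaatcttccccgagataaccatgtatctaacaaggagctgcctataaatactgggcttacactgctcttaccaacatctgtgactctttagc
S100a8 holds 2 GAGGAA matches, 170 and 36 bases before the start site, and S100a9 holds 1 C/EBP match, 236 bases before it. Of 265 aligned bases 58.1% were identical.

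S100a9 read 5.99 and 3.78 in NEMO knockouts with nephritis, against 0.90 and -0.68 in those without it. In IKK2 knockouts it read 2.96, 5.62 and 2.86 with nephritis, against 1.82, 1.002 and 1.31 without. Cre controls with nephritis read -0.09, 0.62 and 3.86, and those without it read -3.85 (not well above background), -1.12 and -2.24. In each genotype every array with nephritis lay above every array without it. Within the groups with nephritis, single arrays differed by more than 2 log2 units.

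S100a8 had 4.03 and 1.72 in NEMO knockouts with nephritis and -1.03 and -2.79 without. IKK2 knockouts had 1.12, 3.61 and 0.79 with nephritis and -0.53, -0.83 and -0.69 without. Cre controls had -2.30, -1.49 and 1.86 with nephritis and -5.14, -3.21 and -4.70 without, of which only -3.21 was well above background. The 16 arrays held the same rank order for both genes (Spearman rho = 1, Pearson r = 0.996), and the log2 ratio between them had a standard deviation of 0.25.

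Nephritis against none was 4.79 ± 1.33 for S100a8 and 4.78 ± 1.35 for S100a9 in NEMO knockouts, within slide 3 (SE, n = 2 each; limma adjusted p = 0.303 and 0.320). It was 2.52 ± 1.09 and 2.44 ± 1.10 in IKK2 knockouts (n = 3 each; adjusted p = 0.303 and 0.329), and 3.70 ± 1.09 and 3.87 ± 1.10 in Cre controls (n = 3 each; adjusted p = 0.0749 and 0.0694). None of these 6 differences was called, although every array with nephritis lay above every array without it in each genotype. Such a separation in this direction was met by 19.6% of all genes in NEMO knockouts, 9.02% in IKK2 knockouts and 20.8% in Cre controls. The 95% interval for S100a8 in NEMO knockouts ran from 1.89 to 7.70.

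Between genotypes, S100a8 and S100a9 were higher in IKK2 knockouts than in Cre controls without nephritis by 3.67 ± 1.09 and 3.78 ± 1.10 (SE, n = 3 each; limma adjusted p = 0.0432 and 0.0408). These calls were near the threshold: S100a8 stayed called in 0 and S100a9 in 1 of 6 fits that left out 1 array (highest adjusted p = 0.116 and 0.124), and with slide as a block they were 0.228 for both. In NEMO knockouts without nephritis the differences from Cre controls were 2.44 ± 1.21 and 2.51 ± 1.23 (adjusted p = 0.126 and 0.121). With nephritis NEMO knockouts stood above Cre controls by 3.52 ± 1.21 for S100a8 and 3.42 ± 1.23 for S100a9 (SE, n = 2 and 3; adjusted p = 0.0311 and 0.0377), although array 3 of the Cre controls, at 1.86 and 3.86, reached above the lower NEMO array. Both calls were lost without array 1 of these NEMO knockouts (0.240 and 0.262), and also without array 1 or array 2 of the Cre controls with nephritis. IKK2 knockouts with nephritis differed from Cre controls with nephritis by 2.49 (95% interval 0.11 to 4.86) for S100a8 and 2.35 (-0.060 to 4.76) for S100a9 (adjusted p = 0.256 and 0.287). With normexp, S100a8 was 1.68 higher in IKK2 knockouts than in Cre controls without nephritis.

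The azurophil genes behaved differently from one another. Mpo, the enzyme that makes hypochlorous acid from hydrogen peroxide, read -0.34 and -0.94 in NEMO knockouts with nephritis and -2.63 and -2.02 in those without. IKK2 knockouts read -0.88, 0.09 and -1.26 with nephritis and -1.79, -1.17 and -1.36 without. Cre controls read 1.15, -1.40 and 0.54 with nephritis and -2.14, -1.16 and -1.34 without. Arrays 1 and 3 of the Cre controls with nephritis were the highest of all 16, whereas array 2 lay within the range of the Cre controls without nephritis.

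For Mpo no comparison was called. Nephritis against none differed by 1.69 ± 0.69 in NEMO knockouts (SE, limma adjusted p = 0.681), 0.75 ± 0.57 in IKK2 knockouts (0.593) and 1.64 ± 0.57 in Cre controls (0.113), and only in NEMO knockouts did the arrays not overlap, as held in this direction for 19.6% of all genes. Between genotypes without nephritis Mpo differed by 0.11 ± 0.57 in IKK2 knockouts and by -0.78 ± 0.63 in NEMO knockouts against Cre controls (adjusted p = 0.924 and 0.347).

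Ctsg, a serine protease of the same granules, was above background on all 8 arrays with nephritis and on 1 of 8 without. Its level was -2.07 and -2.60 in NEMO knockouts with nephritis, against -4.95 and -4.89 without. IKK2 knockouts had -3.56, -1.89 and -3.61 with nephritis, against -3.97, -4.05 and -5.44 without. Cre controls had 0.23, -3.43 and -1.32 with nephritis, against -4.77, -5.58 and -6.24 without. In each genotype every array with nephritis lay above every array without it, as did 19.6% of all genes in NEMO knockouts, 9.02% in IKK2 knockouts and 20.8% in Cre controls. Array 1 of the Cre controls with nephritis was the highest for both Ctsg and Mpo.

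In Cre controls Ctsg was at least 9.59-fold higher with nephritis in the main fit (limma adjusted p = 0.0246, n = 3 each). The lowest fitted difference among 16 alternatives was 1.45 log2 units, below this bound, so the bound holds for the main processing only. The call was kept in 2 of 6 fits that left out 1 array, being lost without any 1 of the 3 Cre controls without nephritis or without array 3 of those with nephritis (highest adjusted p = 0.0801), and with slide as a block it was lost (adjusted p = 0.551). In IKK2 knockouts the fitted log2 difference of Ctsg with nephritis was 1.47 (95% interval -0.28 to 3.22, limma adjusted p = 0.433). This interval includes no change. The value is not a measured size, since no IKK2 knockout array without nephritis was above background. In NEMO knockouts Ctsg was higher by 2.59 ± 0.98 (adjusted p = 0.601). With normexp the call in Cre controls was lost (adjusted p = 0.0797), and without array 1 of the Cre controls without nephritis and array 2 of those with nephritis it was kept (adjusted p = 0.0283).

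Prtn3, the neighbour of Elane on chromosome 10 and a protease of the same family, was at or near background. It read -4.51 and -4.98 in NEMO knockouts with nephritis, and -6.20 and -7.54, neither above background, in those without. IKK2 knockouts with nephritis read -4.93, -3.78 and -4.15, only array 2 above background, and those without read -5.89, -4.23 and -5.22, none above it. Cre controls with nephritis read -3.81, -5.09 and -3.74, arrays 1 and 3 above background, and those without read -5.48, -6.28 and -5.00, none above it. The 5 arrays above background were all from mice with nephritis.

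For Prtn3, nephritis against none was not called in any genotype. The fitted log2 difference was 2.12 ± 0.66 in NEMO knockouts, 0.82 ± 0.54 in IKK2 knockouts and 1.37 ± 0.54 in Cre controls (SE; limma adjusted p = 0.397, 0.527 and 0.150). Against the dimmest level counted as above background, or the gene's own reading where higher, the means with nephritis were 1.48-fold, 1.17-fold and 1.47-fold higher. In IKK2 knockouts and Cre controls the arrays overlapped, and some arrays with nephritis were not above background. Those 2 folds are therefore not minimum rises. Prtn3 was called lower in NEMO than in IKK2 knockouts without nephritis (adjusted p = 0.0403), but no array of either group was well above background, so no fold is given. The call was lost with no filter on dim probes (adjusted p = 0.0511), with the deposited matrix (0.0744), with a replicate block (0.0777), in a fit of only the arrays compared (0.110), with quantile normalisation (0.141), and without array 2 (0.130) or array 3 (0.0605) of the IKK2 knockouts or array 2 of the NEMO knockouts (0.315).

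Elane, neutrophil elastase, was the 1 gene of the 10 that was highest in the Cre controls without nephritis. Its level was 0.18 and -0.04 in NEMO knockouts with nephritis and 0.04 and 0.12 in those without. IKK2 knockouts had 0.17, 0.13 and 0.38 with nephritis and 0.42, 0.42 and 0.44 without. Cre controls had -0.10, -0.00018 and 0.29 with nephritis and 1.12, 0.88 and 0.62 without. The whole range over 16 arrays was 1.23 log2 units, and the 3 Cre controls without nephritis were the highest arrays.

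Without nephritis Elane was lower than in Cre controls by a difference of -0.80 ± 0.15 in NEMO knockouts (SE, limma adjusted p = 0.00115, kept in 5 of 5 fits that left out 1 array) and of -0.45 ± 0.13 in IKK2 knockouts (adjusted p = 0.0424, kept in 1 of 6). Nephritis in Cre controls gave -0.81 ± 0.13 (adjusted p = 0.013, kept in 6 of 6), and with slide as a block -0.79 ± 0.25 (adjusted p = 0.266). In NEMO knockouts the difference with nephritis was -0.01 (95% interval -0.36 to 0.35) and in IKK2 knockouts -0.20 (-0.49 to 0.09). Elane was the only one of the 10 genes with a negative Pearson correlation to all 9 others over the arrays, from -0.70 with Ear1 to -0.20 with Prtn3. With the group means removed 5 of these 9 correlations were positive, up to 0.498 with Ear1, and the other 4 lay between -0.19 and -0.020.

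**Figure D2:**
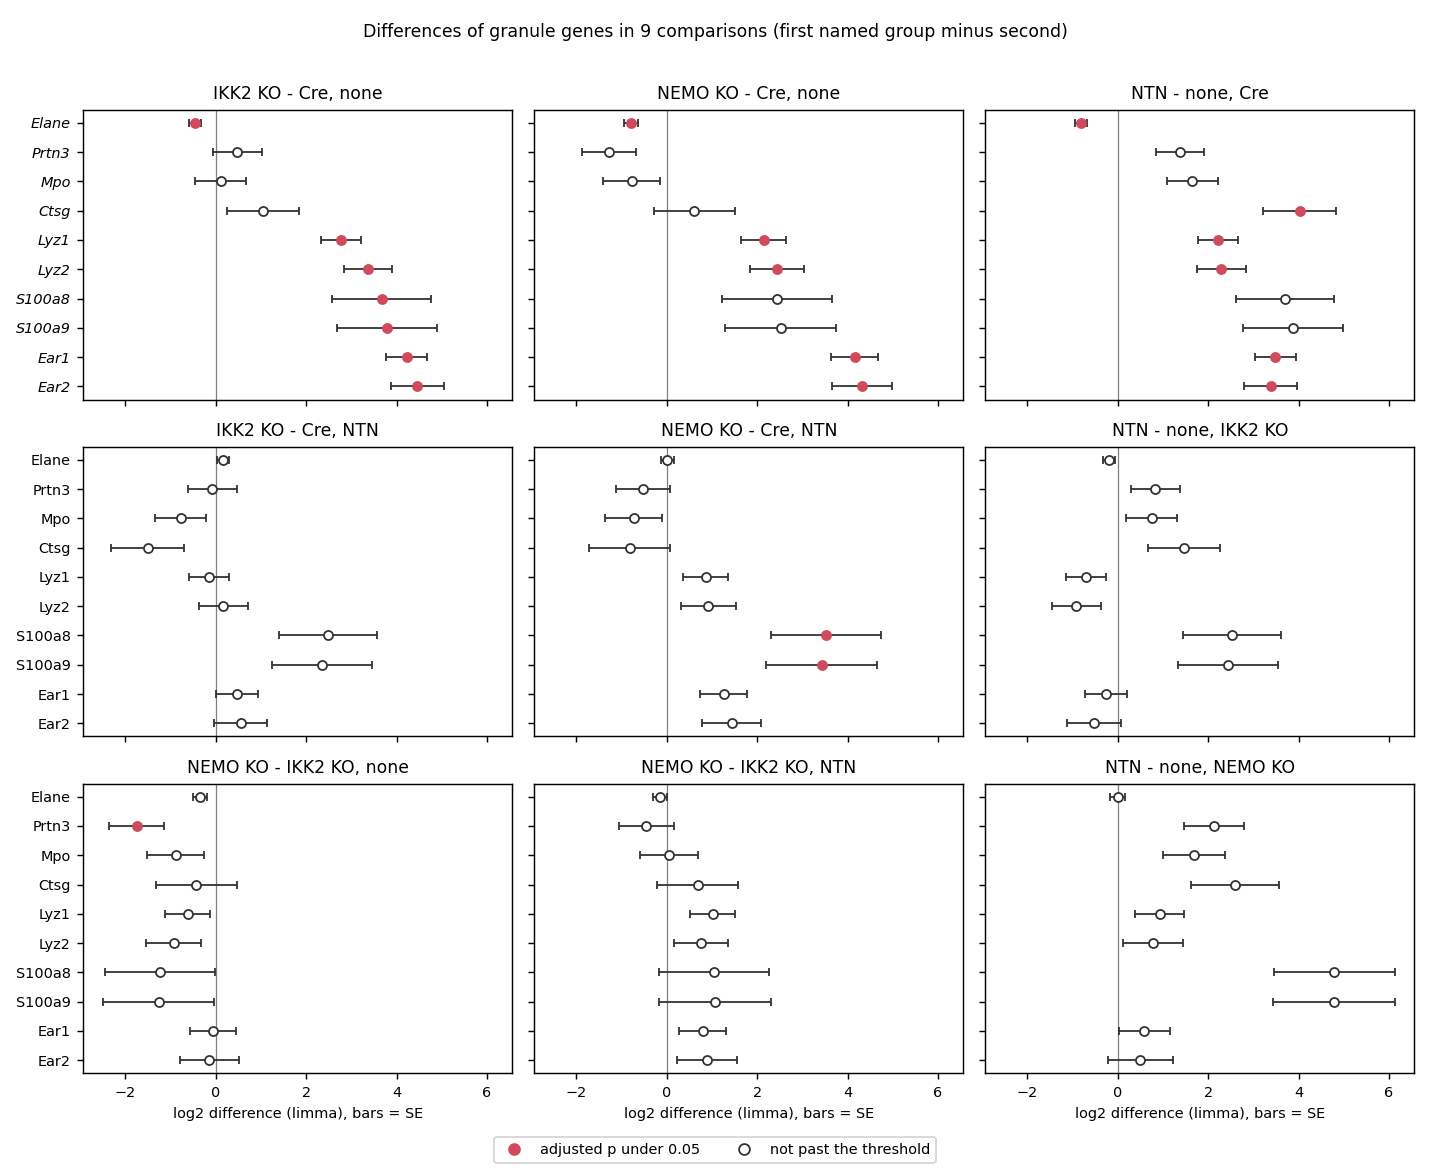
log2 differences of the 10 genes in 9 comparisons, first named group minus second, with bars for the SE from limma; points whose dimmer group was not well above background (Ear1 against Cre controls without nephritis, and several for Ctsg and Prtn3) are fitted values and not measured sizes, and red points have an adjusted p under 0.05. The upper row, whose 3 comparisons share the Cre controls without nephritis, holds 18 of the 21 calls shown, and the rightmost column shows S100a8 and S100a9 above 0 with nephritis in each genotype without a call.

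The genes fell into pairs over the 16 arrays. The highest Pearson correlations were within the pairs S100a8 and S100a9, Ear1 and Ear2, and Lyz1 and Lyz2, followed by Lyz1 with Ear2 at 0.915. With the group means removed, the 3 pairs still ran together, at 0.978 for S100a8 and S100a9, 0.938 for Lyz1 and Lyz2 and 0.898 for Ear1 and Ear2. Mpo correlated with Ctsg at 0.836 and with Prtn3 at 0.759, but with Ear2 at 0.080 and with Lyz2 at 0.151. These are descriptions over arrays that share slides and groups.

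**Figure D3:**
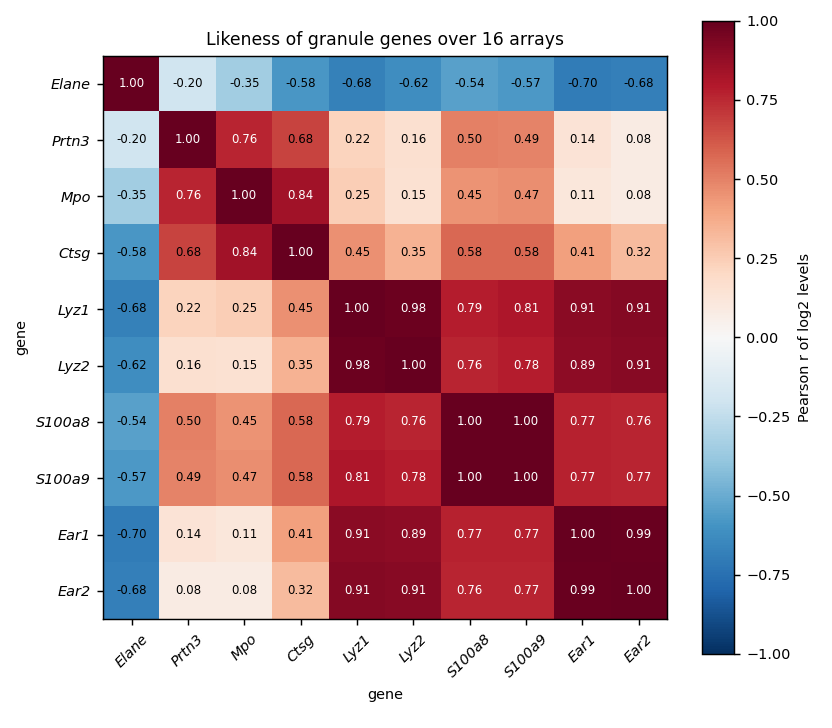
Pearson correlation of log2 levels between each pair of the 10 genes over 16 arrays, with colour from -1 to 1 and the value in each cell. S100a8 with S100a9, Ear1 with Ear2 and Lyz1 with Lyz2 reach 0.979 to 0.996, a block of lysozymes, calprotectin genes and ribonucleases lies above 0.75, and Elane is negative throughout, though not with the group means removed.

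Among genes outside the 10, the 5 whose levels ran most like S100a8 were Wfdc21 (r = 0.974), Chil3 (0.963), Ngp (0.947), Camp (0.942) and Retnlg (0.921). Ngp and Camp encode neutrophilic granule protein and cathelicidin of the specific granules. For Ear2 they were Rnase2a (0.988), another gene of the eosinophil-associated ribonuclease group, then Tgfbi (0.981), Syk, Ifitm6 and Napsa, all at 0.971 or above. Lyz2 ran most like Cyp4f18 (0.938), Cma1, Wfdc17, Klra4 and Btk. For Mpo they were Prss34 (0.873), a protease of basophils and mast cells, then Blvrb (0.864), Slc38a5, Ces2g and Mcpt4. These correlations are over 16 arrays and the genes were picked as the highest of 14674, so they only describe which genes had like patterns.

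Other genes linked to granulocytes were read from lists. Not all listed genes are particular to granulocytes or to the granule named, and the cell type that gave a signal is not known. Ctsc, Serpinb1a, Hp and Myb, for instance, were above background on all 16 arrays. In IKK2 knockouts against Cre controls without nephritis, 10.0% of all genes were higher and 4.53% lower. Of 12 genes listed for azurophil granules and their supply, 5 were higher there and 0 lower (median 0.72, against 0.05 over all genes). They included Serpinb1a, an inhibitor of elastase-like proteases, at 2.86 ± 0.34 (SE, limma adjusted p = 0.000643), and haptoglobin (Hp) at 2.38 ± 0.57 (adjusted p = 0.0177). Ctsc, the protease that activates the serine proteases of granules, was higher by 0.37 ± 0.09 (adjusted p = 0.0177). In NEMO knockouts without nephritis 8 of 12 were higher and 1 lower (21.0% and 22.0% of all genes), with Serpinb1a at 5.85 ± 0.38 and the progenitor transcription factor Myb at -0.96 ± 0.12 (adjusted p = 9.05e-07 and 8.15e-05). Nephritis in Cre controls gave 3 higher and 0 lower (2.57% and 1.47% of all genes), among them Hp at 2.29 ± 0.57 (limma adjusted p = 0.0465). In both knockouts 0 of 12 were called, against 0.443% of all genes in IKK2 and 0.416% in NEMO knockouts.

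Specific and gelatinase granule genes are made later in neutrophil development. In NEMO knockouts with nephritis 7 of 14 tested were higher and 1 lower than in Cre controls with nephritis (median 1.62, against -0.14 over all genes), where 18.8% of all genes were higher and 29.6% lower. Ngp differed by 4.13 ± 1.20 and lactoferrin (Ltf) by 4.11 ± 1.43 (SE; limma adjusted p = 0.0137 and 0.0321), with both above background on 1 of 3 arrays of these Cre controls. Cathelicidin (Camp) differed by 2.91 ± 0.93 (adjusted p = 0.0225) and lipocalin 2 (Lcn2) by 2.15 ± 0.71 (adjusted p = 0.0263). Padi4, which citrullinates histones, was lower, at -0.99 ± 0.19 (adjusted p = 0.00113). Without nephritis 3 of 14 were higher and 2 lower in NEMO knockouts (21.0% and 22.0% of all genes), and 2 higher and 1 lower in IKK2 knockouts (10.0% and 4.53%), where the gelatinase gene Mmp9 was not well above background on any array. With nephritis against none, 1 of 14 was called in NEMO knockouts (Padi4, at 1.16 ± 0.20, limma adjusted p = 0.0326), where 0.416% of all genes were called. In IKK2 knockouts 0 of 14 were called (0.443% of all genes). In Cre controls 2 were higher and 0 lower (2.57% and 1.47% of all genes), again with Padi4 higher, at 1.39 ± 0.17 (adjusted p = 0.00445).

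Of 16 tested genes of mature neutrophils, 3 were higher and 0 lower in IKK2 knockouts than in Cre controls without nephritis, where 10.0% and 4.53% of all genes were. In NEMO knockouts 3 of 16 were higher and 4 lower, a share near that of all genes (21.0% and 22.0%). The cytokine gene Il1b was higher in both, by 4.08 ± 0.87 and 4.34 ± 0.98 (SE; limma adjusted p = 0.0107 and 0.00378), and was above background on 1 of 3 of these Cre control arrays. Cxcr4, a receptor that T cells also carry, was the 1 gene of this list called in IKK2 knockouts with nephritis. It was higher by 1.48 ± 0.14 against Cre controls with nephritis and by 1.10 ± 0.14 against IKK2 knockouts without it (limma adjusted p = 0.000627 and 0.00879). In these comparisons 2.58% and 0.443% of all genes were called in either direction.

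Of 17 genes of eosinophils, basophils and mast cells, 11 could be tested, and the eosinophil peroxidase gene Epx was above background on 1 array only, while Prg3 and Alox15 were never above it. In IKK2 knockouts without nephritis 1 of 11 was higher, near the 10.0% of all genes, namely Ear10, a further ribonuclease of the family, at 1.96 ± 0.40 (SE, limma adjusted p = 0.00852). In NEMO knockouts without nephritis 2 of 11 were higher and 1 lower, against 21.0% and 22.0% of all genes, with Ear10 at 1.76 ± 0.45 (adjusted p = 0.00767). Nephritis in Cre controls gave 1 of 11 higher, where 2.57% of all genes were. It was the basophil protease gene Mcpt8 (limma adjusted p = 0.03), which no array without nephritis showed above background. All the lists were chosen with earlier results of these data known.

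Markers of other cell types differed between the same groups as several granule genes. The summed linear level of 16 monocyte and macrophage markers, in units of the 75th percentile, was 73.1 to 76.8 in NEMO knockouts with nephritis and 44.8 to 56.5 in those without. It was 18.3 to 29.8 in IKK2 knockouts with nephritis and 18.41 to 26.6 without. Cre controls with nephritis had 5.91, 24.3 and 19.5, and those without had 5.27 to 8.71. Array 1 of the Cre controls with nephritis, low for these markers, was also the low one of its group for Ear1, Ear2, Lyz1, Lyz2, S100a8 and S100a9, but the highest for Mpo and Ctsg.

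Of these 16 markers 14 were higher and 0 lower in IKK2 knockouts than in Cre controls without nephritis (median 2.34, 10.0% of all genes higher). In NEMO knockouts 16 of 16 were higher (median 3.65, 21.0% of all genes), and with nephritis in Cre controls 2 of 16 (median 1.19, 2.57% of all genes). In IKK2 knockouts nephritis gave 0 of 16 called with a median of -0.87, where 0.443% of all genes were called in either direction. Adgre1, which encodes the macrophage protein F4/80, was higher by 4.29 ± 0.65 in IKK2 and 4.61 ± 0.72 in NEMO knockouts (SE; limma adjusted p = 0.00215 and 0.000347), with 1 of 3 Cre control arrays above background. The defining Kupffer cell marker Clec4f and the macrophage marker Cd163 were not above background on any array. Of 12 B cell markers 11 were higher in IKK2 and 9 in NEMO knockouts than in Cre controls without nephritis, and 5 were higher with nephritis in Cre controls. Their summed level was 11.9 to 12.7 and 13.7 to 14.6 in NEMO knockouts with and without nephritis, 8.90 to 13.8 and 13.5 to 19.2 in IKK2 knockouts, and 5.39 to 10.9 and 3.22 to 4.14 in Cre controls. Of 8 CD8 T and NK cell markers 6 were higher and 1 lower in each knockout than in Cre controls without nephritis. Of 9 tested dendritic cell markers 4 were higher in IKK2 and 6 in NEMO knockouts (median 2.66 and 2.98), and of 6 plasma cell markers 2 and 5. Array 1 of the Cre controls with nephritis had a summed plasma cell level of 79.0, against 25.5 and 28.1 on the other arrays of its group. Of 6 platelet markers 1 was higher in IKK2 and 0 in NEMO knockouts. Of 7 stem and progenitor cell markers 2 were higher in each, and 1 was lower in NEMO knockouts. For all these lists, the share of all genes against Cre controls without nephritis was 10.0% higher and 4.53% lower in IKK2 knockouts. In NEMO knockouts it was 21.0% higher and 22.0% lower. The part of other cell types in the differences of the granule genes was not tested.

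**Figure D4:**
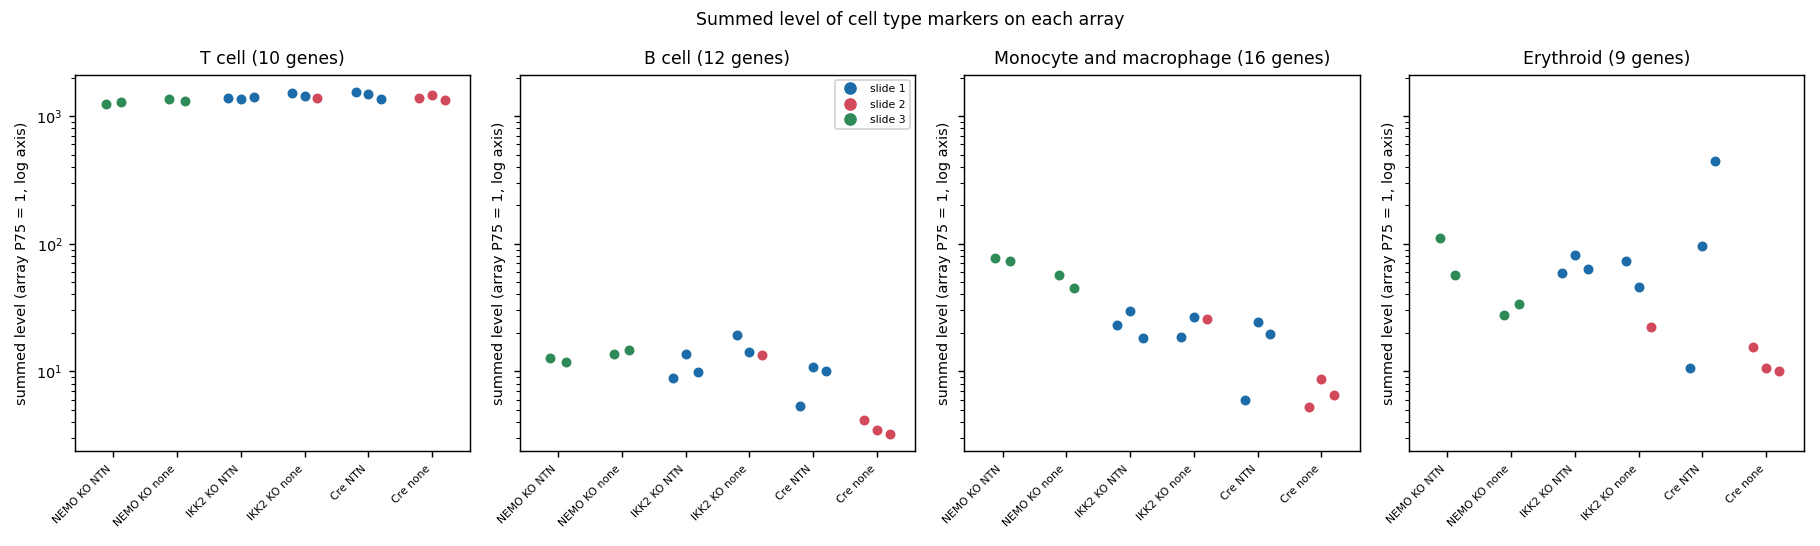
Summed linear level of T cell, B cell, monocyte and macrophage, and erythroid markers on each of 16 arrays, in units of the 75th percentile of the array on a log axis, with colours for slides. T cell markers lie between 1255 and 1556 on all arrays, while monocyte and macrophage markers run from 5.27 in a Cre control without nephritis to 76.8 in a NEMO knockout with nephritis.

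Erythroid markers were also lowest in Cre controls without nephritis and on array 1 of those with it. Unlike the monocyte and macrophage markers, they were highest in a Cre control with nephritis. Of 9 tested, 2 were called higher with nephritis in Cre controls (median 2.85, 2.57% of all genes higher). Against Cre controls without nephritis 0 were called in IKK2 or NEMO knockouts. Their summed level was 56.6 to 111 in NEMO knockouts with nephritis and 27.4 to 33.4 in those without, and 58.8 to 81.6 with nephritis and 22.2 to 73.0 without it in IKK2 knockouts. Cre controls had 10.69, 95.8 and 445 with nephritis, against 10.1 to 15.4 without it. Array 3 of the Cre controls with nephritis, at 445, was also the highest of its group for S100a8 and S100a9. Of the 10 T cell markers 0 were called by limma in IKK2 knockouts against Cre controls without nephritis, with 1 (Cd6) at an unadjusted p under 0.05. In NEMO knockouts 1 was higher and 3 lower than in Cre controls without nephritis, where 21.0% and 22.0% of all genes were. With nephritis 0 were higher and 4 lower than in Cre controls (median -0.24, against -0.14 over all genes), where 18.8% and 29.6% of all genes were. NEMO knockouts with nephritis also had the lowest summed T cell levels, 1255 and 1285.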

How the data were processed

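RNA of splenic CD4+ T cells, enriched with an isolation kit and purified by flow sorting, was labelled with Cy3, 1 array per sample, per the labels' protocols; RNA came from 1 of 2 extraction kits, and the sources used here do not say which kit served which sample. The authors deposited scanner files that give each spot's intensity in linear units. The processed intensity was made, per the file headers, by Agilent Feature Extraction 10.7.3.1, with probes placed on build mm9, while the submitters' processing notes give version 10.5. They also deposited a matrix of log2 values, used only as an alternative. Its column medians were 5.65 to 5.68, and its columns correlated over probes with the log2 median spot intensity at 0.994 to 0.999 and with the log2 processed intensity at 0.966 to 0.984, so its scale is log2, its arrays were equalised and its genes were not centred, while the treatment of its background is unknown here.

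Control spots and outlier spots (103 to 246 per array) were dropped and spots of a probe averaged. The 75th percentile of the non-control probes of an array (237 to 419 in linear units) was subtracted from its log2 processed intensities. RefSeq accessions gave 27242 of 55681 probes 1 symbol and 28439 none. A gene was represented by its brightest probe well above background on at least 2 arrays, which left 14674 genes. limma 3.58.1 in R 4.3.3 (lmFit, eBayes, two-sided, 6 group means, no covariate) was used with Benjamini-Hochberg adjustment; its code was tested on simulated data. The files hold no mean signal, so normexp (offset 50) used the median signal. The number of arrays limits the precision.

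All 10 genes are named. For Mpo, Lyz2, S100a8 and Ear2 the 5 other genes with the highest Pearson correlation were named, and from the lists the text names examples among called genes. The genes, lists and tests were chosen with earlier results of these data known. Alternatives were another normalization or percentile, normexp, no filter, the deposited matrix, every probe, slide as a block or alone, the replicate number as a block, only the arrays compared, and leaving out arrays. Replicate numbers did not pair the samples: same-numbered arrays correlated in their deviations from group means at -0.196 to 0.126 over 22 pairs. Promoters came from RefSeq (GRCm38.p6); all 10 genes matched by symbol.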

Additional observations from a re-analysis of the deposited data

Results flagged for a closer look

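For 3 of the granule genes the difference between nephritis and none differed between genotypes in a direct limma contrast. The response of IKK2 knockouts minus that of Cre controls was -3.76 for Ear1 (adjusted p = 0.037), -3.91 for Ear2 (adjusted p = 0.0492) and -2.92 for Lyz1 (adjusted p = 0.0492), on the log2 scale with 3 arrays in each of 4 groups. The responses themselves were -0.53 in IKK2 knockouts and 3.38 in Cre controls for Ear2, and -0.71 and 2.21 for Lyz1. For Ear1 the response was -0.27 in IKK2 knockouts, and Cre controls were at least 4.93-fold higher with nephritis, since none of their 3 arrays without nephritis was well above background. The -3.76 is therefore a fitted value and not a measured size. The calls held in 4, 2 and 2 of 12 fits that left out 1 array, for Ear1, Ear2 and Lyz1 in that order, and in 0 fits with slide as a block.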

How the results depend on the processing

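No call of a granule gene changed sign: of 393 recomputed values of the 24 calls, 237 stayed past the threshold and 156 did not. Ear1 and Ear2 in NEMO knockouts against Cre controls without nephritis, and Elane there, kept their calls in 14 of 14 alternatives. None of these 14 took account of the slide, since slide and genotype cannot be told apart in that comparison.

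For IKK2 knockouts against Cre controls without nephritis (7 genes called), 4 were called with normexp, without the filter, with slide as a block, with the replicate block and without both Cre arrays that stood apart (array 1 without and array 2 with nephritis), and 0 on slide 2 alone. For NEMO knockouts against Cre controls with nephritis (2 called), 4 were called with normexp and with the deposited matrix, 1 with the replicate block and without both Cre arrays, and 0 with only the arrays compared. For NEMO against IKK2 knockouts the 1 call without nephritis became 0 with quantile normalization, without the filter, with the replicate block, with only the arrays compared and with the deposited matrix, and the 0 calls with nephritis became 2 with normexp and with only the arrays compared. For nephritis in Cre controls (6 called), 0 were called with slide as a block and with only the arrays compared, 1 without both Cre arrays, and 5 with the replicate block. For the response of IKK2 knockouts minus that of Cre controls (3 called), 1 was called with the percentile taken from probes that every array had above background and with every probe tested, and 0 with normexp, without the filter, with slide as a block, with the replicate block, with only the arrays compared, with the deposited matrix and without both Cre arrays. Why these counts moved was not tested, beyond the fewer arrays in some fits.

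Leaving out 1 array gave 4 to 5 genes for IKK2 knockouts against Cre controls without nephritis and 0 to 0 with it, 3 to 5 for NEMO knockouts against Cre controls without and 0 to 4 with nephritis, 0 to 1 for NEMO against IKK2 knockouts in both states, 2 to 8 for nephritis in Cre controls, and 0 to 0 in either knockout. The count was 8 without array 1 of the Cre controls with nephritis and 2 without array 1 or array 3 of those without it. It gave 0 to 4 for the IKK2 response difference and 0 to 1 for that of NEMO. The replicate number as a block gave 5 genes for NEMO knockouts against Cre controls without nephritis. Where no array of a group showed Prtn3, Ctsg or Ear1 above background, differences from that group are known at best as bounds under the main processing, and a fitted value there depends on the background correction.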
